A study of Homo sapiens with 2 samples.

Results

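The genes described here encode 10 transcription factors of the basic leucine zipper (bZIP) class that are partners or relatives of ATF4 and CHOP: ATF2, ATF3, ATF5, CREB1, CREB5, CREM, CEBPA, CEBPB, CEBPD and CEBPG. They were taken by gene symbol from the 44591 genes of the count table, and all 10 were found. ATF4 and CHOP (gene symbol DDIT3) were not among them and are given only for comparison. RNA was sequenced from HSC-1, an established human cell line of cutaneous squamous cell carcinoma, after transfection with a control siRNA (siNC) or with siRNA against the long noncoding RNA LINP1 (siLINP1). Both cultures carried no other stated alteration, and each condition had 1 library. Per the labels, transfection was at 70% confluency, followed by 6 h without serum and 24 h after the change of medium; the methods of the study state another confluency and harvest time. Which of the siLINP1 oligonucleotides was used for sequencing is not given in the sources used here. The study asked which transcripts respond to depletion of LINP1.

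A bZIP factor binds DNA as a dimer through a basic region, and the leucine zipper next to it sets which partners it can take. The CREB and ATF proteins bind the cyclic AMP response element (CRE), the C/EBP proteins bind CCAAT/enhancer elements, and mixed dimers of ATF4 or CHOP with a C/EBP protein bind a composite element made of parts of both. In the unfolded protein response, phosphorylation of eIF2α favours translation of ATF4, and ATF4 and CHOP act with other bZIP factors on genes of amino acid supply, stress and cell death.

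The promoter stretches below hold elements to which these same families bind, and also an AP-1 element in CREB5 and a TATA element in CEBPB. The stretches are of ATF3, CREB5, CEBPB, CEBPG and CREM, which are not all of the members compared below. Such elements are not limited to the stretches shown: windows of ATF5 and CREB1 also hold some, as do other windows of the members shown. Sequences are from RefSeq on GRCh38.p14, written 5′ to 3′ along the gene, with the motif in capitals; each window reached from 250 bases before to 50 bases after an annotated start, and starts are numbered from the most upstream. Of the 10 members, 8 had windows, 21 in all. The stretch of ATF3 start 1 (chr1:212565157-212565333) holds a C/EBP-ATF composite element, TGATGNAA, whose leading base lies at -191 from the start. CEBPG start 2 (chr19:33373963-33374112) holds the composite element at -42. CREB5 start 3 holds it on the opposite strand at -83 (chr7:28686039-28686068) and an AP-1 element, TGANTCA, at -44 (chr7:28686078-28686107). Both CREB5 stretches, of 30 bases each, lie wholly within annotated transcript sequence, whereas the other printed stretches have 0 such bases. CEBPB start 2 (chr20:50190680-50190829) holds the short CRE core, TGACG, at -57 and a TATA element, TATAAA, at -29. CREM start 7 (chr10:35195742-35195864) holds a full CRE, TGACGTCA, at -50, and the overlapping window of CREM start 6 holds the same element.
ATF3 start 1: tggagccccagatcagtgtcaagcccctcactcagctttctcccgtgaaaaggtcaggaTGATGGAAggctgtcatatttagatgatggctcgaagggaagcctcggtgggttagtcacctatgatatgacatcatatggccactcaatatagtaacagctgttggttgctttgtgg
CEBPG start 2: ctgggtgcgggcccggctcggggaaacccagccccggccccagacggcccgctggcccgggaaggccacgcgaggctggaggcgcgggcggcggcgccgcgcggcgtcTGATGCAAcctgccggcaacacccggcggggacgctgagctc
CREB5 start 3, composite: gggccagcacaTTACATCAtcgcttggcct
CREB5 start 3, AP-1: tgggaaggataTGACTCActcaagctagtt
CEBPB start 2: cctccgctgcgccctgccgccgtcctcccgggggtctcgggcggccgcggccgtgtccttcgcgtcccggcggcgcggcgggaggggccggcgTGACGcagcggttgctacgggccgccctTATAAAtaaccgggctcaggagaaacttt
CREM start 7: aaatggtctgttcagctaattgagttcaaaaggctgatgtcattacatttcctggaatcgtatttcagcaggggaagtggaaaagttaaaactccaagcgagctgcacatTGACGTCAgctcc

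Each motif was searched on both strands, as spelled, in the members' 21 windows and in all 35116 windows of the table. The composite element was in 3 of the members' windows, those of ATF3, CEBPG and CREB5 shown above, and in 3.62% of all windows. The full CRE was in 2 of the members' windows, which are the overlapping pair of CREM, and in 1.85% of all windows. The short CRE core, which every full CRE also contains, was in 5 of the members' windows and in 24.6% of all. The C/EBP element, TTGCNNAA, was in 5 of the members' windows and in 10.5% of all, and the AP-1 element was in 2 of the members' windows, of ATF5 and CREB5, and in 7.71% of all. The TATA element was in 5 of the members' windows and in 11.5% of all. Windows of 1 gene can overlap, and a match of letters is a description of these windows, not evidence of binding.

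The siNC library held 18829544 counted reads and the siLINP1 library 15383081. LINP1, the targeted RNA, was read 167 times in siNC and 23 times in siLINP1, giving a log2 fold change of -2.65 (95% interval -3.35 to -2.02). Fold changes are siLINP1 over siNC after scaling by median-of-ratios size factors, and their 95% Clopper-Pearson intervals treat each gene's reads in siLINP1 as a binomial share of its total. Levels are the deposited RPKM, the reads of a gene divided by its length and by the total of the library, with exact Poisson intervals. The intervals cover counting error only, since reads can be copies made by PCR and there is no second culture, so no test between the conditions was possible. In bulk RNA, fewer cells of a kind and less RNA per cell cannot be told apart. The squamous markers of the cell line were sparse: 5 of 12 were at 1 RPKM or more in both libraries and 6 of 12 were below it in both, with KRT5 at 32 and 24 reads and TP63 at 6 and 8. Their summed level was 88.9 RPKM in siNC and 78.3 in siLINP1, with a median log2 fold change of -0.05. Of the 12, 3 were past 1.5-fold upwards and 3 downwards, against 14.4% and 13% of genes with at least 10 reads. The upward ones had few reads: KRT6A 31 and 45, TP63 6 and 8, and PKP1 5 and 8. The downward ones were KRT14, CDH1 with 14 and 3 reads, and SFN with 264 and 138 (-0.73, -1.03 to -0.42). KRT14 had 243 and 87 reads (-1.27, -1.64 to -0.91), ITGB4 5990 and 3962 (-0.39, -0.45 to -0.33) and PERP 1158 and 1398 (0.48, 0.37 to 0.59). The 9 mesenchymal markers summed to 2068 and 1697 RPKM, with a median of -0.36. By more than 1.5-fold, 1 was higher and 1 lower, against the same 14.4% and 13% of genes. The higher one, COL1A2, had 4 and 8 reads and an interval that held 0 (-0.69 to 3.39). COL1A1 had 190 and 79 reads (-1.06, -1.45 to -0.67), VIM 61097 and 41992 (-0.33, -0.35 to -0.31) and ZEB1 697 and 883 (0.55, 0.41 to 0.70). FN1 (-0.40), SPARC (-0.48), CDH2 (-0.56) and TWIST1 (-0.36) were also lower, with intervals below 0. Of the 9, only COL1A2 and ZEB1 had a higher point value. Of 4 blood markers, 3 were below 1 RPKM in both libraries (CD3E had 0 reads, and CD68 was above), the sum being 49.7 and 46.3 RPKM, and the 3 endothelial markers were all below it, with sums of 0.218 and 0.235 RPKM. All of the named markers but KRT14 and COL1A1 were named after their values were seen. The part of the markers in the results below was not tested.

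All 10 members had at least 100 reads over the pair of libraries, from 229 for CEBPA to 6436 for CEBPB. ATF3 and CREB5 stood more than 2-fold higher in siLINP1, and no member was lower by more than 1.5-fold. The count of members past 1.5-fold was thus 2 of 10 upwards, against 14.4% of the 19840 genes with at least 10 reads and 8.72% of the 13336 genes with at least 100 reads. The same 2 members passed 2-fold, against 6.74% and 2.71% of those genes. Lower by more than 1.5-fold were 0 members, against 13% of genes with at least 10 reads and 6.77% with at least 100. The point value was higher in siLINP1 for 9 members, and for 46.8% of genes with at least 100 reads; it was so for 10 members under scaling to the total count and to protein-coding genes. The interval lay above 0 for 8 members, where 28.8% of genes with at least 100 reads had such an interval, and it held 0 for ATF2 and CEBPA. For ATF2 this holds only under the scaling used here: under scaling to the total count, TMM and protein-coding genes its interval lay above 0, which made the count 9. The median log2 fold change was 0.36 over the members and -0.023 over all genes with at least 10 reads.

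**Figure D1:**
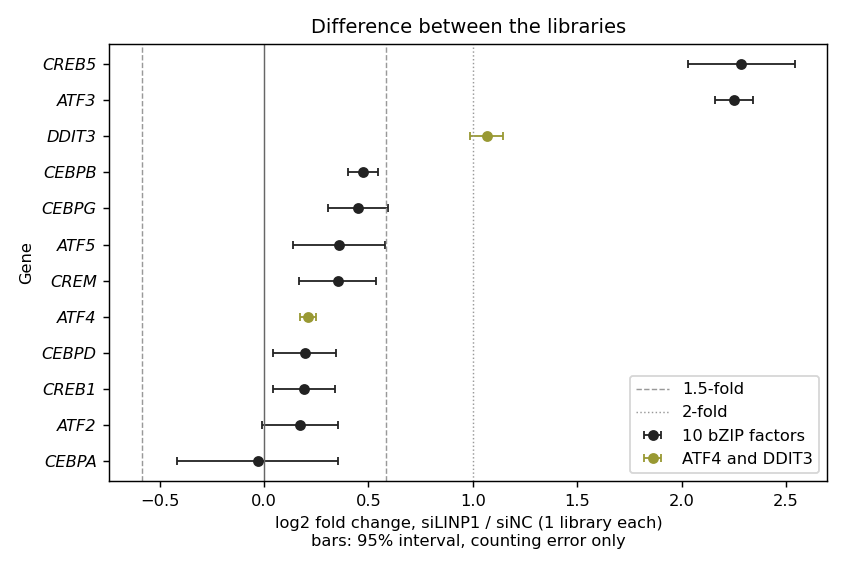
Log2 fold change, siLINP1 over siNC, of the 10 members (black) and of ATF4 and DDIT3 (olive), 1 library per condition, with bars for the 95% Clopper-Pearson interval of counting error; the dashed lines mark 1.5-fold in each direction and the dotted line marks 2-fold upwards. CREB5 (2.28) and ATF3 (2.25) lie apart from the other 8 members, which run from -0.03 for CEBPA to 0.47 for CEBPB.

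ATF3 is a stress-induced factor that represses or activates genes depending on its partner, and its gene is a known target of ATF4. It lies on chromosome 1 at 212738676 to 212794119 (GRCh37, plus strand). ATF3 had 1197 reads in siNC and 4929 in siLINP1, which is 25.0 RPKM (23.6 to 26.4) and 125.9 RPKM (122.4 to 129.5). The siLINP1 level was higher by 4.76-fold, a log2 fold change of 2.25 (2.16 to 2.34). Among genes with at least 100 reads, 43 of 13336 had a larger log2 fold change, and among those with at least 1000 reads, 10 of 7071 did. By RPKM among 19233 protein-coding genes, ATF3 stood at rank 2814 in siNC and 410 in siLINP1. ATF3 made up 15.3% of the summed RPKM of the 10 members in siNC and 39.4% in siLINP1.

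ATF5, the relative of ATF4 that activates genes of the mitochondrial unfolded protein response and is itself controlled in translation, showed a much smaller difference. Its gene lies on chromosome 19 at 50431959 to 50437193 (plus strand). ATF5 had 327 reads in siNC and 363 in siLINP1, or 6.67 and 9.06 RPKM, a log2 fold change of 0.36 (0.14 to 0.58). The log2 fold change of ATF3 was larger than that of ATF5 by 1.89 (1.65 to 2.13), a difference that does not depend on how the libraries are scaled. NUP62 overlaps ATF5 over 1030 bases on the other strand, with 2234 and 1882 reads and a log2 fold change of -0.04 (-0.13 to 0.051). IL4I1 overlaps it over 838 bases with 56 and 47 reads (-0.04, -0.63 to 0.54), and MIR4751 had 0 reads in each library. Whether the counting used strand is not given in the sources used here, so reads in the shared bases cannot be assigned with certainty. The same holds for the other members that share bases with a gene on the other strand.

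Set against the genes the members work with, ATF3 differed more than either. ATF4 had 10082 reads in siNC and 10088 in siLINP1, a log2 fold change of 0.21 (0.17 to 0.25), and DDIT3 had 1965 and 3558, a log2 fold change of 1.07 (0.99 to 1.15). The log2 fold change of ATF3 exceeded that of ATF4 by 2.04 (1.94 to 2.14) and that of DDIT3 by 1.19 (1.06 to 1.31). For ATF5 the excess over ATF4 was 0.15 (-0.074 to 0.37), an interval that held 0.

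CREB5 and ATF2 are close relatives that bind CRE elements and dimerise with JUN proteins, and ATF2 is activated by the stress kinases p38 and JNK. CREB5 lies on chromosome 7 at 28338940 to 28865511 (plus strand) and was the lowest of the members in siNC. CREB5 had 158 reads in siNC and 665 in siLINP1, or 0.938 and 4.83 RPKM. The difference was 4.87-fold, a log2 fold change of 2.28 (2.03 to 2.54), and 42 of 13336 genes with at least 100 reads had a larger one. Among protein-coding genes CREB5 stood at rank 11748 by RPKM in siNC and 8712 in siLINP1, so the gene with a fold change like that of ATF3 was still a gene of low level. The log2 fold changes of ATF3 and CREB5 differed by -0.03 (-0.31 to 0.24).

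ATF2 lies on chromosome 2 at 175936978 to 176032934 (minus strand). It had 511 reads in siNC and 498 in siLINP1, or 5.59 and 6.67 RPKM, and its log2 fold change of 0.17 (-0.0087 to 0.35) had an interval that held 0 under this scaling. The log2 fold change of CREB5 was larger by 2.11 (1.80 to 2.43). Per length, CREB5 stood at 0.168 of the ATF2 level in siNC and at 0.724 in siLINP1. ATF2 overlaps MIR933 and the unnamed gene ENSG00000229750.1, each with no more than 2 reads in a library.

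**Figure D2:**
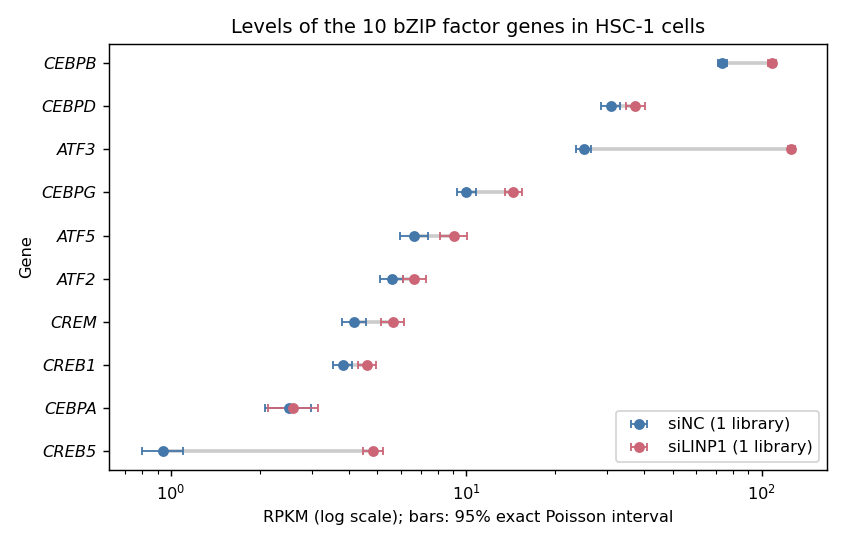
RPKM (log axis) of the 10 members in the siNC (blue) and siLINP1 (red) libraries, 1 library each, ordered by the siNC level, with bars for the 95% exact Poisson interval and a grey line joining the libraries. ATF3 moves from 25.0 to 125.9 RPKM, above CEBPB at 108.3, and CREB5 from 0.938 to 4.83 RPKM, while the intervals of CEBPA overlap.

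The C/EBP genes were the most abundant subgroup per length, with a summed level of 116.9 RPKM in siNC and 162.6 in siLINP1. CEBPB, which drives acute-phase and inflammatory genes and is made as long activating and short inhibitory proteins from 1 mRNA, lies on chromosome 20 at 48807120 to 48809227 (plus strand). CEBPB had 2924 reads in siNC and 3512 in siLINP1, which is 73.7 RPKM (71.0 to 76.4) and 108.3 RPKM (104.8 to 111.9). Its log2 fold change was 0.47 (0.40 to 0.55), or 1.39-fold, the largest point value of the C/EBP members and short of 1.5-fold. Gene counts do not tell its protein forms apart. The antisense gene CEBPB-AS1 shares 1487 bases with it and had 510 and 535 reads, with a log2 fold change of 0.28 (0.10 to 0.46), and CEBPB exceeded it by 0.20 (0.0033 to 0.39). That interval treats the counts of CEBPB and CEBPB-AS1 as independent, though reads in the shared bases cannot be assigned with certainty.

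CEBPG has a zipper but no activation domain of its own and is a dimer partner of ATF4. It lies on chromosome 19 at 33864575 to 33873592 (plus strand), and no other gene of the table overlaps it. CEBPG had 726 reads in siNC and 857 in siLINP1, or 9.99 and 14.4 RPKM, a log2 fold change of 0.45 (0.30 to 0.59). The log2 fold changes of CEBPB and CEBPG differed by 0.025 (-0.14 to 0.19), an interval that held 0 and does not show that they are equal. Each exceeded ATF4, CEBPB by 0.26 (0.18 to 0.35) and CEBPG by 0.24 (0.089 to 0.39). DDIT3 in turn exceeded CEBPB by 0.59 (0.48 to 0.70).

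CEBPD, an immediate responder to cytokines, had 725 reads in siNC and 718 in siLINP1, or 30.8 and 37.3 RPKM, a log2 fold change of 0.20 (0.045 to 0.35). Its gene lies on chromosome 8 at 48649476 to 48650726 (minus strand). CEBPB exceeded it by 0.28 (0.11 to 0.45) and CEBPG by 0.25 (0.043 to 0.46). CEBPA, the differentiation factor that restrains proliferation in many epithelia, was the member with the fewest reads, 124 in siNC and 105 in siLINP1. At 2.50 and 2.59 RPKM its log2 fold change was -0.03 (-0.42 to 0.36), so a difference within this interval was not detectable at this depth; its sign turns under scaling to the total count (0.052). CEBPB exceeded it by 0.50 (0.11 to 0.90). CEBPA lies on chromosome 19 at 33790840 to 33793470 (minus strand), under 2 unnamed antisense genes, ENSG00000267580.1 with 22 and 18 reads and ENSG00000267727.1 with 10 and 7. Within the summed RPKM of the 4 C/EBP members, CEBPB held 63.0% in siNC and 66.6% in siLINP1, CEBPD 26.3% and 22.9%, CEBPG 8.54% and 8.87%, and CEBPA 2.14% and 1.60%. The order of the 4 genes was the same in both libraries.

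CREB1 and CREM are the CRE-binding factors that protein kinase A activates by phosphorylation, and CREM also gives rise to the repressor ICER from an internal promoter. CREB1 lies on chromosome 2 at 208394616 to 208470713 (plus strand) and had 754 reads in siNC and 745 in siLINP1. Its level was 3.81 and 4.61 RPKM, with a log2 fold change of 0.19 (0.044 to 0.34). METTL21A overlaps it over 25359 bases on the other strand, with 109 and 153 reads and a log2 fold change of 0.70 (0.33 to 1.07). CREM lies on chromosome 10 at 35415769 to 35501886 (plus strand) and had 461 and 509 reads, or 4.17 and 5.63 RPKM, with a log2 fold change of 0.35 (0.17 to 0.54). The overlapping gene ENSG00000230534.2 had 9 and 4 reads. The log2 fold change of CREM exceeded that of CREB1 by 0.16 (-0.078 to 0.40), which holds 0. The gene counts do not separate ICER, whose promoter carries CRE elements, from the longer CREM forms.

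Ordered by RPKM in siNC, the members ran CEBPB, CEBPD, ATF3, CEBPG, ATF5, ATF2, CREM, CREB1, CEBPA and CREB5. Of these neighbours, only CREM and CREB1 had a ratio whose counting interval held 1 (1.09, 0.971 to 1.23). In siLINP1 the order was ATF3, CEBPB, CEBPD, CEBPG, ATF5, ATF2, CREM, CREB5, CREB1 and CEBPA, and only CREB5 and CREB1 were not apart (1.05, 0.943 to 1.17). ATF3 went from 0.339 of the CEBPB level per length (0.317 to 0.363) to 1.16 times it (1.11 to 1.21). The 6 members ATF5, ATF2, CREM, CREB1, CEBPA and CREB5 were under 10 RPKM in both libraries. These levels rest on the gene lengths of the table, whose derivation is not given in the sources used here. A gene read mainly as a form shorter than that length has a lower RPKM than its transcripts.

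**Figure D3:**
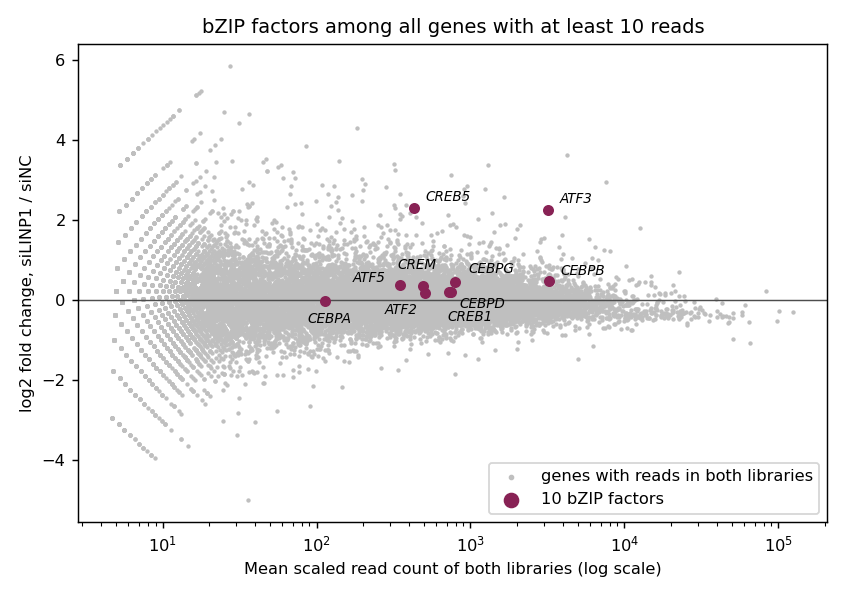
Log2 fold change, siLINP1 over siNC, against the mean scaled read count (log axis) of genes with at least 10 reads and reads in both libraries (grey) and of the 10 members (purple), 1 library per condition. ATF3 and CREB5 lie at the upper edge of the genes of like read number, and the other 8 members lie within 0.5 of 0.

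Further bZIP genes gave the frame for these values. Of 43 such genes, ATF4 and DDIT3 included, 38 had at least 10 reads, with a median of 0.33. Of the 38, 12 were higher by more than 1.5-fold (31.6%) and 3 lower. Among all genes with at least 10 reads, 14.4% were higher and 13% lower, which also holds beside the subfamilies below. With a minimum of 100 reads, 12 of the further bZIP genes were higher and 1 lower, against 8.72% and 6.77% of all genes. The FOS and JUN family, which makes up AP-1 and dimerises with ATF2 and ATF3, had 4 of 7 members higher by more than 1.5-fold (5 under the other 3 scalings), 0 lower and a median of 0.85. FOS had 112 and 500 reads (2.37, 2.07 to 2.68), FOSB 118 and 497 (2.28, 1.99 to 2.59), JUNB 3960 and 8530 (1.32, 1.26 to 1.37) and JUN 1996 and 3120 (0.85, 0.77 to 0.94). JUND, named after its values were seen, lay in the other direction with 3347 and 2012 reads (-0.52, -0.61 to -0.44). The log2 fold change of FOS differed from that of ATF3 by 0.12 (-0.20 to 0.44), and the log2 fold change of JUNB minus that of ATF3 was -0.93 (-1.04 to -0.83).

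The PAR and NFIL3 genes, which bind elements close to those of C/EBP and include circadian output factors, had 3 of 4 past 1.5-fold and a median of 1.00. HLF had 27 and 125 reads (2.42, 1.81 to 3.08), TEF 326 and 597 (1.08, 0.89 to 1.28) and NFIL3 427 and 694 (0.91, 0.73 to 1.09). The CNC, BACH and MAF genes of the oxidative stress response had 3 of 11 higher and 2 lower, with a median of 0.33. Among them were MAFF with 946 and 2014 reads (1.30, 1.19 to 1.41), BACH1 with 941 and 1407 (0.79, 0.67 to 0.91) and NFE2 with 119 and 27 (-1.93, -2.59 to -1.32). The second lower gene, NRL, named after its values were seen, had 13 and 5 reads and an interval that held 0 (-1.17, -3.01 to 0.41). The other ATF and CREB genes with XBP1 had 1 of 11 higher and 1 lower, with a median of 0.26. Named after its values were seen, the higher gene was XBP1, with 1742 and 2369 reads (0.65, 0.56 to 0.74), and the lower one CREB3L1, with 47 and 5. The BATF and JDP2 genes had 0 of 3 past 1.5-fold, with a median of 0.23, and CEBPE, named for completeness after its values were seen, had 1 read in each library.

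**Figure D4:**
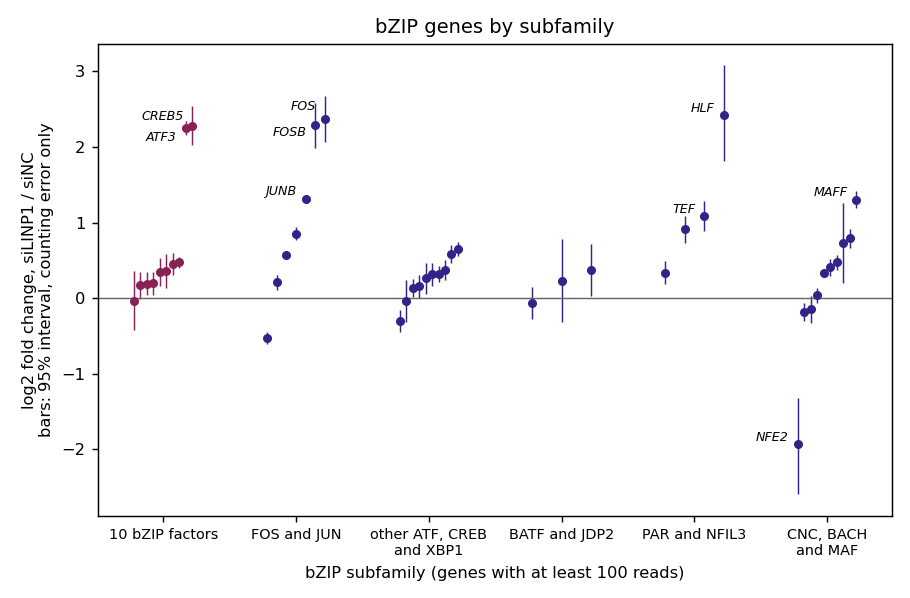
Log2 fold change, siLINP1 over siNC, of the 10 members (purple) and of other bZIP genes with at least 100 reads (blue) by subfamily, 1 library per condition, with bars for the 95% interval of counting error and names for genes past 2-fold. ATF3 and CREB5 sit at the height of FOS (2.37), FOSB (2.28) and HLF (2.42), and the other ATF and CREB genes stay under 1.

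Lists of cofactors, activating kinases and genes downstream of the members were read in the same way. Of all genes with at least 10 reads, 14.4% were past 1.5-fold upwards and 13% downwards. Of 14 genes known as targets of CREB, 10 were higher by more than 1.5-fold and 0 lower, with a median of 0.81. They included EGR1 with 1874 and 12466 reads (2.94, 2.87 to 3.01), PER2 with 150 and 431 (1.73, 1.46 to 2.01) and PER1 with 2048 and 3536 (1.00, 0.92 to 1.08), and FOS is also on this list. Those not past 1.5-fold, named after their values were seen, were NR4A1 (0.15), SIK1 (0.29), PDE4D (0.22) and RGS2 (0.30). With a minimum of 100 reads, 10 CREB targets were likewise higher, against 8.72% of all genes. Of 12 genes driven by C/EBP factors in inflammation, 8 had at least 10 reads, with 4 higher, 1 lower and a median of 0.46. With a minimum of 100 reads, 2 of these genes were higher and the median was -0.013. CXCL1 had 807 and 1765 reads (1.34, 1.22 to 1.46), CXCL8 1199 and 1730 (0.74, 0.63 to 0.85) and CCL2, the lower gene, 119 and 42 (-1.29, -1.84 to -0.77).

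The 14 ATF4 targets had 2 higher, 2 lower and a median of -0.07, which is 0.011 when the libraries are scaled to the total count. The 2 higher genes were CTH, an enzyme of cysteine synthesis, with 246 and 416 reads (0.97, 0.74 to 1.20) and TRIB3, a pseudokinase induced by CHOP and ATF4, with 2549 and 3820 (0.79, 0.72 to 0.87). The 2 lower ones were named after their values were seen. They were VLDLR with 415 and 234 reads (-0.62, -0.85 to -0.38) and NUPR1 with 79 and 38 (-0.85, -1.44 to -0.27). The 8 genes of the mitochondrial unfolded protein response, which ATF5 activates, had 0 past 1.5-fold in either direction and a median of -0.18. The 7 CREB coactivators and cofactors had 1 higher and 1 lower, with a median of 0.12. Here CREBRF, a bZIP protein that acts on CREB3 factors, had 479 and 844 reads (1.03, 0.86 to 1.19), and the lower gene, named after its values were seen, was CRTC3 with 677 and 389. The 14 kinases upstream of these factors had 1 higher and 0 lower, with a median of -0.07 (0.012 when scaled to the total count), the higher gene being MAPK8 (JNK1) with 341 and 510 reads (0.79, 0.59 to 0.99). The other listed p38, JNK and protein kinase A genes were named after their values were seen. MAPK14 (-0.29, -0.46 to -0.13), MAPK9 (-0.22, -0.38 to -0.054) and PRKACA (-0.36, -0.46 to -0.26) were lower by less than 1.5-fold. PRKACB had an interval that held 0 (-0.04, -0.21 to 0.14).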

How the data were processed

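Total RNA of HSC-1 cells was sequenced by the authors, with 1 library for siNC and 1 for siLINP1. Per the methods of the study, reads were aligned to GRCh37/hg19 with Tophat2, and HTSeq was run on the alignments; the submitters' processing notes also name HISAT2 and Bowtie2. Versions, gene annotation and strand setting are not given in the sources used here. The deposited values were raw read counts and RPKM, the latter made by the authors from the count, the gene length and the library total. A further 12 columns of per-sample values were not used.

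Size factors (median of ratios) put the libraries on 1 scale, and genes needed at least 10 reads over the libraries. Fold changes had no pseudocount, and no p-value was computed. Python 3.11.15, pandas 2.3.3, scipy 1.17.1, R 4.3.3 and edgeR 4.0.16 (for TMM factors) were used, and the scripts were tested on simulated data. The alternatives were CPM and TMM scaling, protein-coding genes only, minimums of 1 and 100 reads, pseudocounts of 1 and 5, and ratios without gene length. The members and lists were chosen with earlier results of these data known. Named were the members, LINP1, ATF4, DDIT3, genes overlapping a member and, per list, at most 4 genes per direction with at least 100 reads and the whole interval beyond 1.5-fold; genes outside this rule are marked as such. Protein sequences were not analysed here.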

Additional observations from a re-analysis of the deposited data

How the results depend on the processing

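No paired analysis was possible because each condition had 1 library, and for the same reason no library could be left out. The members past 1.5-fold and 2-fold (2 higher, 0 lower) were as many under each of the 7 alternatives for scaling, filter and pseudocount. The minimums of 1 and 100 reads could not alter this, since every member had at least 229 reads. Over the 7 alternatives, ATF3 ranged from 2.25 to 2.33 and CREB5 from 2.24 to 2.37. CEBPA, whose interval held 0, ranged from -0.030 to 0.052, so its sign depends on the scaling. Scaling to the total count shifted every value by 0.082 and took CEBPB to 0.56, beyond its counting interval. Without gene length, the ratio of ATF3 to CEBPB was 0.409 in siNC and 1.40 in siLINP1, that of CREB5 to ATF2 0.309 and 1.34, and that of CREM to CREB1 0.611 and 0.683, so the last pair and CREB5 against ATF2 in siLINP1 change order. The share of all genes higher by more than 1.5-fold was 23.9% at a minimum of 1 read and 8.72% at 100 reads. At 100 reads the C/EBP target list had 2 higher and a median of -0.013. At that minimum, 1 of the further bZIP genes was lower by more than 1.5-fold. Within them, 1 of the CNC, BACH and MAF genes and 0 of the other ATF and CREB genes were lower. Members with an interval above 0 were 9 under CPM, TMM and protein-coding scaling. Under CPM the ATF4 targets had 4 higher and 1 lower. The count of lower CREB cofactors was 0 under CPM, TMM, protein-coding scaling and a pseudocount of 5, and other ATF and CREB genes had 2 higher under CPM, TMM and protein-coding scaling. Depth limits CEBPA most. A single library per condition gives no spread between cultures.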
